A study of Homo sapiens with 12 samples.

Results

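The genes and functions that responded alike to doxycycline (DOX) in QGP-1 and BON-1 cells are described here. The authors sequenced polyadenylated RNA of both human pancreatic neuroendocrine tumor (pNET) cell lines, each transduced with a DOX-inducible hairpin against MUC1 (tet-MUC1shRNA). The 4 groups were QGP-1/tet-MUC1shRNA with vehicle, QGP-1/tet-MUC1shRNA with DOX, BON-1/tet-MUC1shRNA with vehicle and BON-1/tet-MUC1shRNA with DOX, with 3 libraries in each and 12 libraries in all. Vehicle was DMSO at 0.1%, DOX was given at 500 ng/mL, and the treatment lasted 7 days. All 4 groups carried the same hairpin construct, and no DOX-treated library of a control hairpin was analysed here. Effects of DOX itself, of the hairpin on RNAs other than MUC1 and of MUC1 loss therefore cannot be told apart. The lines were grown in different media, so medium and line cannot be told apart either. The counts of both lines were joined by gene symbol, which gave 28008 genes, and 16598 passed a filter on low counts and were tested. A single DOX effect was fitted to all 12 libraries with cell line as a covariate, so that a gene that responds in opposite directions cancels and a gene that responds unequally carries a larger error.

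MUC1 is a heterodimeric membrane glycoprotein whose C-terminal subunit, MUC1-C, signals to the nucleus in carcinoma cells. A DOX-inducible hairpin is transcribed only when DOX is added and is cut by the RNAi machinery into a short guide RNA, which pairs with its target mRNA and leads to its destruction. A guide can also lower other mRNAs whose 3′ UTR pairs with its seed, the bases near its 5′ end, so that seed matches are routinely looked at in hairpin experiments. Neuroendocrine tumor cells store peptide hormones and amines in dense-core granules, and both lines are widely used models of this tumor type.

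The QGP-1 libraries held between 38224144 and 50525926 gene counts and the BON-1 libraries between 15981954 and 28484324, so that low genes were measured with less counting error in QGP-1. The non-coding RNAs RN7SK, RN7SL1 and RN7SL2 took between 3.3% and 6.38% of the counts in QGP-1 and between 1.35% and 3.77% in BON-1. QGP-1 DOX replicate 1 and BON-1 DOX replicate 3 lay farthest from their group means, with root mean square deviations of 0.362 and 0.379 on the log2 scale, against lowest values of 0.255 in QGP-1 and 0.3 in BON-1. Counts of replicates differed beyond sampling noise in every pair of libraries of a group. Both lines expressed some neuroendocrine markers. CHGB, a granule protein, stood at 304 to 439 CPM (counts scaled to library size by TMM) in QGP-1 and 485 to 687 CPM in BON-1. Other markers were missing or near 0 in a line. NEUROD1 was at 0 in all QGP-1 libraries, where RFX6 reached at most 0.081 CPM and PTPRN 0.498 CPM. ISL1 was at 0 in all BON-1 libraries, where NCAM1 reached at most 0.107 CPM and PAX6 0.353 CPM. Of the T cell markers, CD3D was at 0 in all 12 libraries.

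MUC1, the target of the hairpin, was measured first. In QGP-1 it stood at 7.37, 5.95 and 5.79 CPM with vehicle and at 0.722, 1.07 and 0.762 CPM with DOX. In BON-1 it stood at 20.2, 20.1 and 15 CPM with vehicle and at 1.42, 2.6 and 3.93 CPM with DOX. The groups did not overlap in either line, and the lowest vehicle library was above every DOX library of its own line. The common log2 fold change was −2.84 ± 0.19 (SE, n = 3 per group, adjusted p = 2.27e-08, edgeR quasi-likelihood test with Benjamini-Hochberg adjustment), which left 14.0% of the vehicle level. The effects were −2.91 in QGP-1 and −2.78 in BON-1, and the 95% interval of their difference ran from −0.58 to 0.84.

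A total of 2545 genes fell (15.3% of the genes tested) and 2456 rose (14.8%) in the fit of both lines together, at an adjusted p of 0.05. A fit of this kind can rest on 1 line, so a stricter class was formed. A gene is said to have moved alike if it passed the common fit, changed in the same direction in each line with an unadjusted p under 0.05, and showed no difference between the lines at an adjusted p of 0.05. Of the genes that fell, 1191 moved alike (7.18% of the genes tested), and of those that rose, 1193 did (7.19%). Among these genes the median decrease left 71.5% of the vehicle level and the median increase gave 131%, and the change reached 1 on the log2 scale for only 127 lower genes and 55 higher genes. Because a missed difference does not show equality, the interval of the difference between lines was also computed, and it lay within 0.5 log2 either side of 0 for 585 lower genes and 845 higher genes.

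Vehicle and DOX libraries did not overlap in either line among genes that moved alike for 945 of 1191 with a decrease and 1001 of 1193 with an increase. Over all genes tested, 1349 (8.13%) were lower and 1398 (8.42%) were higher in both lines without overlap. The genes at the threshold of the common fit were small or noisy changes. LMO3, at −1.11 and an adjusted p of 0.0498, was the last inside it among the lower genes that moved alike. EPOP, at −0.44 and 0.0501, was the first outside it among all genes with a negative change. On the higher side HAS3, at 0.42 and 0.0487, was the last inside among genes that moved alike, and LOC101928100, at 0.48 and 0.0501, was just outside among all genes with a positive change.

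The split between lower and higher genes differed between the count fit and a TPM fit. Read counts with TMM scaling gave 50.9% of calls lower, with a median log2 fold change of −0.0072 over all genes. The deposited TPM values, rescaled after RN7SK, RN7SL1 and RN7SL2 were set aside and tested with limma on log2(TPM + 1), gave 1029 lower and 3305 higher genes, which is 23.7% lower, with a median over all genes of 0.11. That fit differed from the count fit in test, pseudocount and filter as well as in scale, and other scalings of the counts gave 48.1% (DESeq2 size factors) and 55.4% (library size) lower. Changes under 0.11 on the log2 scale are therefore within the shift between these fits.

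The response was far from fully shared. A difference between the lines was called for 2776 genes (16.7%), among them 486 genes called lower and 481 called higher in the common fit. A further 868 lower and 782 higher genes passed the common fit without a called difference but missed the direction or the unadjusted p in 1 line, and 129 and 113 of the called genes had effects of opposite sign in the lines. Over all 16598 genes the correlation across genes of the QGP-1 with the BON-1 effect was 0.145, and over the 8966 genes whose mean log2 CPM reached 3 in each line it was 0.406. Genes are not independent replicates, and these correlations are given as descriptions. The plot of one line's effect against the other's shows both sets of genes that moved alike along the diagonal.

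**Figure D1:**
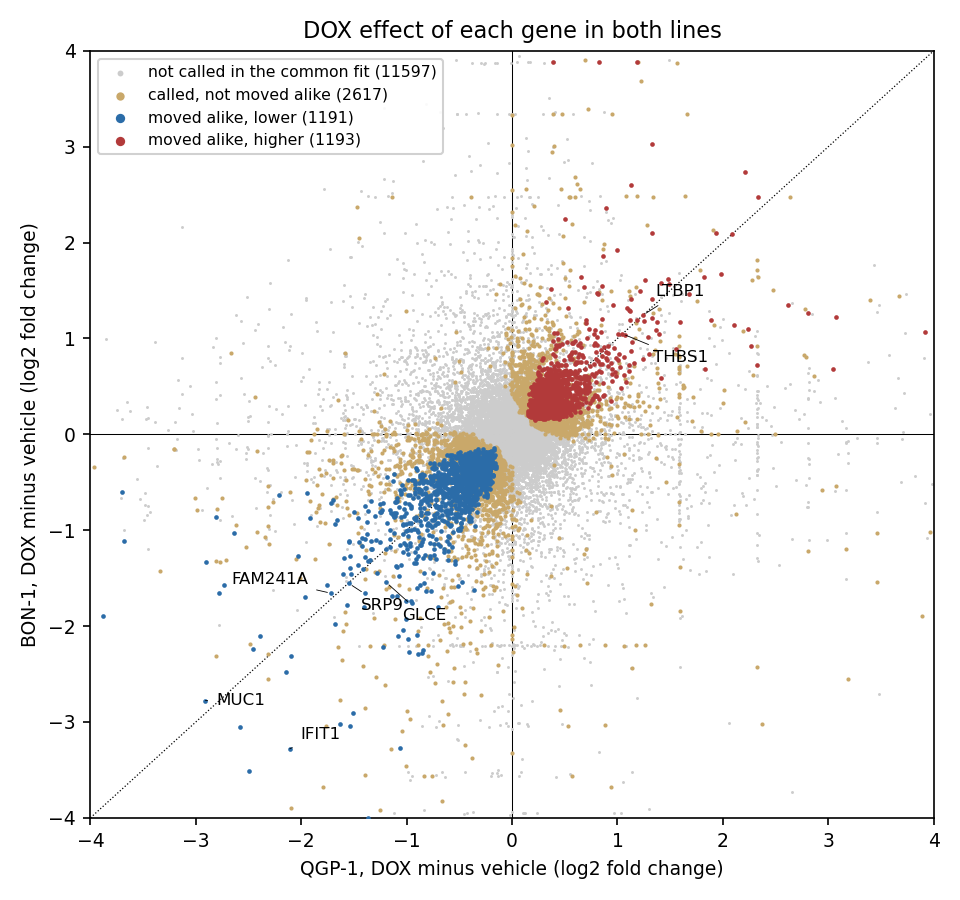
Each point is 1 of the genes tested, at its log2 fold change (DOX minus vehicle) in QGP-1 on the x axis and in BON-1 on the y axis. Genes that moved alike are blue if lower (1191) and red if higher (1193), and genes called in the common fit that did not move alike are tan. The axes end at 4 either side of 0 and 155 genes lie outside them. The blue and red points sit in the lower left and upper right quadrants, while most grey points spread along both axes.

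The largest shared decreases belonged to genes with different tasks, and 8 of the first 12 held the same short sequence in their 3′ UTR. Ranking was done among genes that moved alike and whose mean log2 CPM reached 3 in each line. The 12 with the largest decrease were left at 31.1% to 47.5% of vehicle, vehicle and DOX did not overlap in either line for all 12, and the interval of the difference between lines lay within 0.5 log2 for 7. The sequence in question is the heptamer ATCAGTA, which was found by ranking heptamers as described further on. The windows shown are the first 3′ UTR match of each of the 8 genes among the 12 that held it, those of TMEM33, ADAT1 and LDHA, which had some of the smallest p-values, that of PGAM1, a glycolytic gene that fell unequally in the lines, and the match in the MUC1 coding sequence. They were read from the GENCODE v44 transcripts on GRCh38, in the sense direction, with the heptamer and any A that follows it in capitals.
MUC1, coding sequence, chr1:155187767-155187790, minus strand: agacacagttcaATCAGTAtaaaa
FAM241A, 3′ UTR, chr4:112187481-112187504, plus strand: attgtgatgaaaATCAGTAAagat
SRP9, 3′ UTR, chr1:225789638-225789661, plus strand: tggcaaatttgtATCAGTAAtttg
GLCE, 3′ UTR, chr15:69269950-69269973, plus strand: acttgatctacaATCAGTAAaagt
AIMP2, 3′ UTR, chr7:6023740-6023763, plus strand: ttcatgcctattATCAGTAAgggg
PSMB5, 3′ UTR, chr14:23025970-23025993, minus strand: gccttcaattgtATCAGTActttt
CIB1, 3′ UTR, chr15:90230265-90230288, minus strand: gtgtttgtactaATCAGTAAtaaa
DARS, 3′ UTR, chr2:135907064-135907087, minus strand: cttcagacatgcATCAGTAggaaa
UBE2Q2, 3′ UTR, chr15:75900831-75900854, plus strand: agaattctttaaATCAGTAAagtt
TMEM33, 3′ UTR, chr4:41955530-41955553, plus strand: cattagtaatttATCAGTAAcatt
ADAT1, 3′ UTR, chr16:75597037-75597060, minus strand: taccccagggcaATCAGTAAtcta
LDHA, 3′ UTR, chr11:18407727-18407750, plus strand: tttgtgaactatATCAGTAgtgta
PGAM1, 3′ UTR, chr10:97433400-97433423, plus strand: tcctttttccatATCAGTAtaata

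FAM241A, a gene of poorly known function, had the largest shared decrease among the genes ranked. It stood at 60.9, 57.5 and 70.2 CPM in QGP-1 with vehicle and at 20.1, 18.3 and 19.1 CPM with DOX, and at 61.1, 53.8 and 59.0 CPM in BON-1 with vehicle and at 17.5, 17.6 and 19.96 CPM with DOX. All DOX libraries were low and lay close together, with no overlap in either line. The common log2 fold change was −1.69 ± 0.0734 (SE, adjusted p = 4.77e-10, edgeR), with −1.71 in QGP-1 and −1.66 in BON-1. Its 3′ UTR held the heptamer 3 times, the first of them 555 bases after the stop codon.

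SRP9 encodes a subunit of the signal recognition particle, which halts translation of secretory proteins until the ribosome docks at the endoplasmic reticulum. It stood at 365, 349.8 and 453 CPM in QGP-1 with vehicle and at 119, 127 and 153 CPM with DOX, and at 525, 580.2 and 596 CPM in BON-1 with vehicle and at 204, 179.6 and 196 CPM with DOX. Every DOX library lay far below the vehicle libraries of its line. SRP9 was left at 34.1% of vehicle (log2 fold change −1.55 ± 0.0786, adjusted p = 8.74e-10, edgeR), with an effect of −1.55 in each line. Its 3′ UTR held the heptamer at 2 places. SRP9 has 1 like-named pseudogene in the annotation, and how reads shared between them were counted is not given in the sources used here.

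AIMP2 and DARS are parts of the multi-tRNA synthetase complex, in which AIMP2 is a scaffold and DARS charges aspartate tRNA. AIMP2 stood at 111, 101 and 108 CPM in QGP-1 with vehicle and at 41.4, 47.7 and 42.3 CPM with DOX, and at 49.3, 49.3 and 50.4 CPM in BON-1 with vehicle and at 20.4, 18.6 and 15.6 CPM with DOX. DARS stood at 117, 115 and 120.3 CPM in QGP-1 with vehicle and at 61.8, 58.0 and 57.6 CPM with DOX, and at 146, 127 and 137 CPM in BON-1 with vehicle and at 52.9, 57.4 and 62.8 CPM with DOX. Neither gene had overlapping groups, and both were low in all 6 DOX libraries. AIMP2 fell to 38.9% (−1.36 ± 0.0737, adjusted p = 1.91e-09, edgeR) and DARS to 46.1% of vehicle (−1.12 ± 0.0677, adjusted p = 7.74e-09). ADAT1, which deaminates an adenosine of tRNA, fell to 49.2% (−1.02 ± 0.056), and its levels in DOX libraries were 57.1 to 58.3 CPM in QGP-1 and 26.4 to 28.1 CPM in BON-1.

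PSMB5 encodes the proteasome subunit with chymotrypsin-like activity, the main target of clinical proteasome inhibitors. It stood at 58.4, 56.3 and 57.6 CPM in QGP-1 with vehicle and at 23.8, 21.6 and 22.3 CPM with DOX, and at 199, 182 and 173 CPM in BON-1 with vehicle and at 81.4, 76.2 and 66.5 CPM with DOX. The decrease was the same size in lines whose PSMB5 levels differed, at −1.35 in QGP-1 and −1.31 in BON-1 (95% interval of the difference −0.21 to 0.28). UBE2Q2, a ubiquitin-conjugating enzyme, fell to 47.5% of vehicle (−1.07 ± 0.0751, adjusted p = 3.54e-08, edgeR), with 58.2 to 72.1 CPM in QGP-1 and 70.5 to 76.8 CPM in BON-1 with vehicle and 28.3 to 30.8 and 33.0 to 41.4 CPM with DOX. UBE2Q2 has 10 like-named pseudogenes.

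GLCE and CIB1 were also among the 12 leading decreases, and TMEM33 was among the genes with the smallest p. GLCE, the epimerase that makes iduronic acid in heparan sulfate, stood at 43.1, 42.1 and 47.0 CPM in QGP-1 with vehicle and at 20.4, 18.2 and 19.0 CPM with DOX, and at 118, 117 and 127 CPM in BON-1 with vehicle and at 44.2, 36.2 and 44.1 CPM with DOX. GLCE fell in both lines without overlap but not by the same size, with −1.20 in QGP-1 and −1.54 in BON-1 and an interval of the difference of −0.61 to −0.08. TMEM33, a membrane protein of the endoplasmic reticulum, was left at 50.3% of vehicle (−0.99 ± 0.0504, adjusted p = 8.74e-10, edgeR), at 432 to 441 CPM with vehicle and 210.5 to 232 CPM with DOX in QGP-1 and 220.4 to 235 and 111 to 116 CPM in BON-1. CIB1, a calcium- and integrin-binding protein, was left at 42.6% (−1.23 ± 0.0945, adjusted p = 1.08e-07). The 3′ UTRs of GLCE, TMEM33 and CIB1 held the heptamer at 2 places each.

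LDHA, which converts pyruvate to lactate at the end of glycolysis, was among the genes with the smallest p. It stood at 818, 831 and 861 CPM in QGP-1 with vehicle and at 463, 400.4 and 417 CPM with DOX, and at 537, 465 and 484 CPM in BON-1 with vehicle and at 230.0, 223 and 226 CPM with DOX. LDHA was reduced by similar amounts in both lines (−0.97 and −1.13) and was left at 48.3% of vehicle (−1.05 ± 0.0613, adjusted p = 4.83e-09, edgeR). LDHA has 6 like-named pseudogenes.

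The other 4 of the 12 had no heptamer in their 3′ UTR. UQCRFS1, the Rieske iron-sulfur subunit of respiratory complex III, stood at 98.3, 92.7 and 95.02 CPM in QGP-1 with vehicle and at 36.9, 44.2 and 47.1 CPM with DOX, and at 109.8, 108 and 99.5 CPM in BON-1 with vehicle and at 52.2, 54.8 and 42.0 CPM with DOX. It was left at 45.8% (−1.13 ± 0.0765, adjusted p = 2.67e-08, edgeR) without overlap in either line. KCNK3, a background potassium channel that helps set the resting potential, was left at 43.2% (−1.21 ± 0.101, adjusted p = 2.98e-07), and its DOX values were 5.53 to 6.66 CPM in QGP-1 and 13.4 to 17.9 CPM in BON-1. The replication-dependent histone gene HIST1H3I was left at 42.6% (−1.23 ± 0.117) and TTC30B, a part of the intraflagellar transport machinery of cilia, at 44.9% (−1.15 ± 0.124). Both are uncertain, since histone H3 genes and TTC30B have near-identical copies that could share reads.

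**Figure D2:**
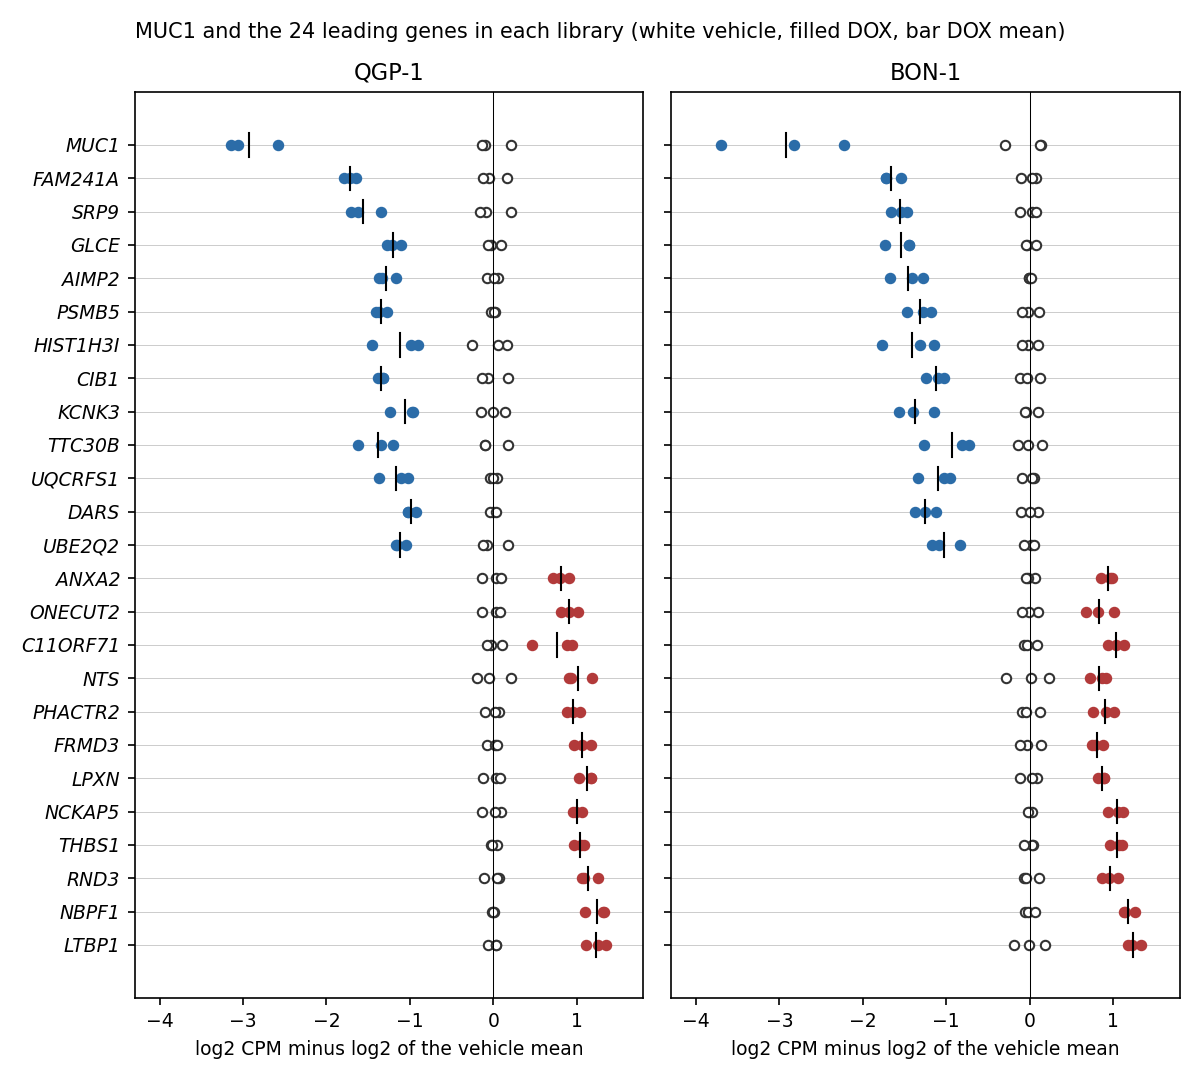
Levels of MUC1 and of the 12 genes with the largest decrease and the 12 with the largest increase among genes that moved alike, in QGP-1 (left) and BON-1 (right), as log2 CPM of each library minus the log2 of the vehicle mean of that line. White points are vehicle libraries, filled points are DOX libraries and bars are DOX means, and no filled point overlaps the white points of its gene in either line.

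The heptamer was found as follows, after the values were seen, and it is given as a description with no test. Of the 16598 genes, 14110 matched a coding gene of GENCODE v44, and 8752 of those had a 3′ UTR and reached a mean log2 CPM of 3 in each line. The search covered the 15393 heptamers that occurred in at least 100 of these 3′ UTRs, on the sense strand only. For each, the mean log2 fold change of the genes that held it was taken after the trend with 3′ UTR length was removed. This mean was multiplied by the square root of the number of these genes and divided by the standard deviation over all genes. Heptamers were ranked by this score, which also grows with the number of carriers. ATCAGTA ranked 1 for the lowest score in the fit of both lines together. It also ranked 1 in QGP-1 alone and in BON-1 alone. The heptamer that ranked next in all of these was TCAGTAA, which overlaps it by 6 bases. The rank was 1 in each of the 12 fits that left out a library and stayed 1 without the length term. All of these fits share libraries with the one that picked the heptamer, so their ranks are not independent of it. Without the floor on expression the rank was 1 in the common fit and in QGP-1 and 557 in BON-1, so that the pattern in BON-1 rests on expressed genes.

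The 3′ UTRs of 1142 of the 8752 genes (13.0%) held the heptamer. Of these, 305 fell (26.7%), against 1351 of the 7610 without it (17.8%), and 18.9% of all 8752 fell. The heptamer was picked for the low values of its carriers in these same libraries. That carriers fell more often, here and in the comparisons below, is therefore largely set by the choice. Genes that held it 2 times or more fell in 33.8% of cases (204 genes). A match followed by A went with the lowest values, with 36.6% of 380 genes lower and a median of −0.16 after the length trend was removed (−0.17 in each line), and a match without that A gave 21.8% of 762 genes and a median of −0.06. Where the 3′ UTR held only TCAGTAA, 16.8% of 825 genes fell. Of the 667 genes with the heptamer only outside the 3′ UTR 15.4% fell, against 18.0% of the 6943 with it nowhere.

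**Figure D3:**
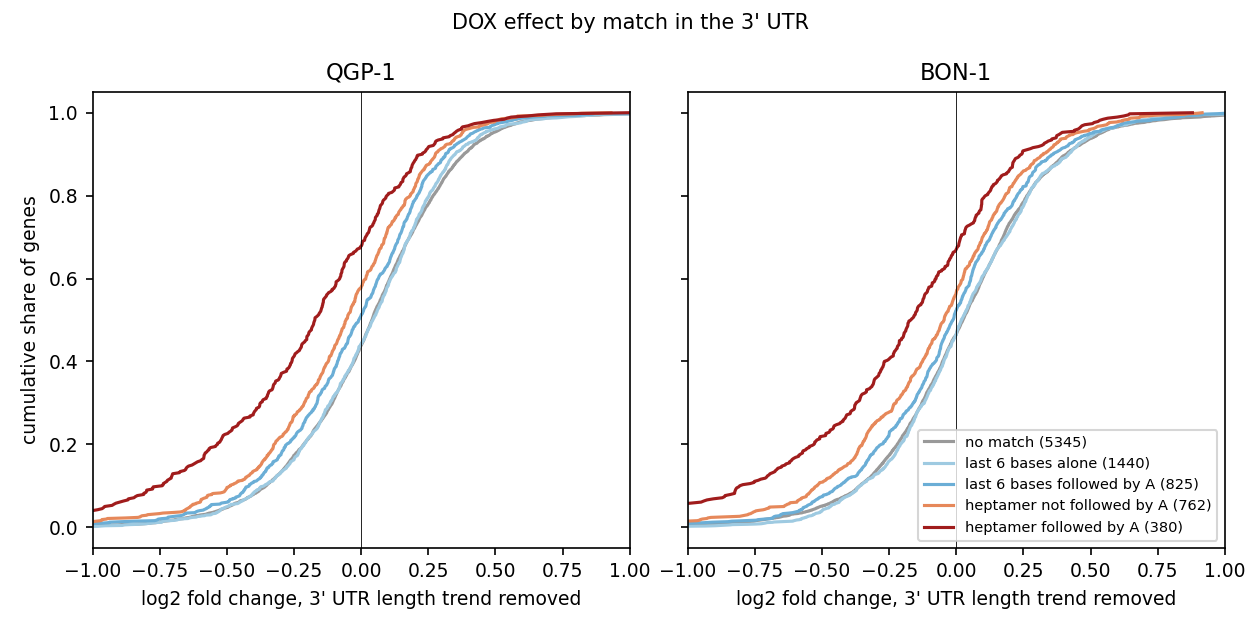
Cumulative share of genes (y axis) by log2 fold change after the 3′ UTR length trend was removed (x axis), in QGP-1 (left) and BON-1 (right), for classes of match in the 3′ UTR. The curve of the 380 genes with the heptamer followed by A lies farthest to the left in both panels, and the curve of the 762 genes without that A lies next to it.

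Genes with the heptamer made up more of the decreased genes the larger the decrease. It was held by 8 of the 12 genes with the largest shared decrease (66.7%), by 16 of the first 25 (64.0%), by 24 of the first 50 (48.0%), by 36 of the first 100 (36.0%) and by 171 of all 845 that moved alike and lower in this set (20.2%). Among the 981 that moved alike and higher it was held by 122 (12.4%), and by none of the leading 12. The other 674 of the 845 genes that moved alike and lower held no heptamer. MUC1 itself held it once, in the coding sequence, and not in its 3′ UTR of 311 bases. The sequence of the hairpin was not used here, and whether its guide carries the complement of this heptamer was not tested.

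Length moved with the response in the same libraries. In the 5 length classes of the 3′ UTR, from 11 to 500 bases up to 3543 to 32870 bases, the share of genes lower was 32.2%, 19.2%, 14.2%, 10.2% and 8.6% without the heptamer and 61.5%, 47.1%, 37.2%, 25.7% and 19.5% with it. Long 3′ UTRs thus went with fewer decreases and the heptamer with more decreases within every class. By length of the whole transcript the share lower was 35.3% in the shortest and 9.7% in the longest of 5 classes, and the share higher 6.2% and 40.4%. Median log2 fold changes in these end classes were −0.20 and 0.19 in QGP-1 and −0.09 and 0.09 in BON-1. The share of RN7SK, RN7SL1 and RN7SL2 in the counts of QGP-1 fell within the same contrast, from 5.37% to 6.38% with vehicle to 3.3% to 4.53% with DOX, and in BON-1 the ranges of 1.35% to 2.39% and 1.55% to 3.77% overlapped. Their part in the trend was not tested.

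**Figure D4:**
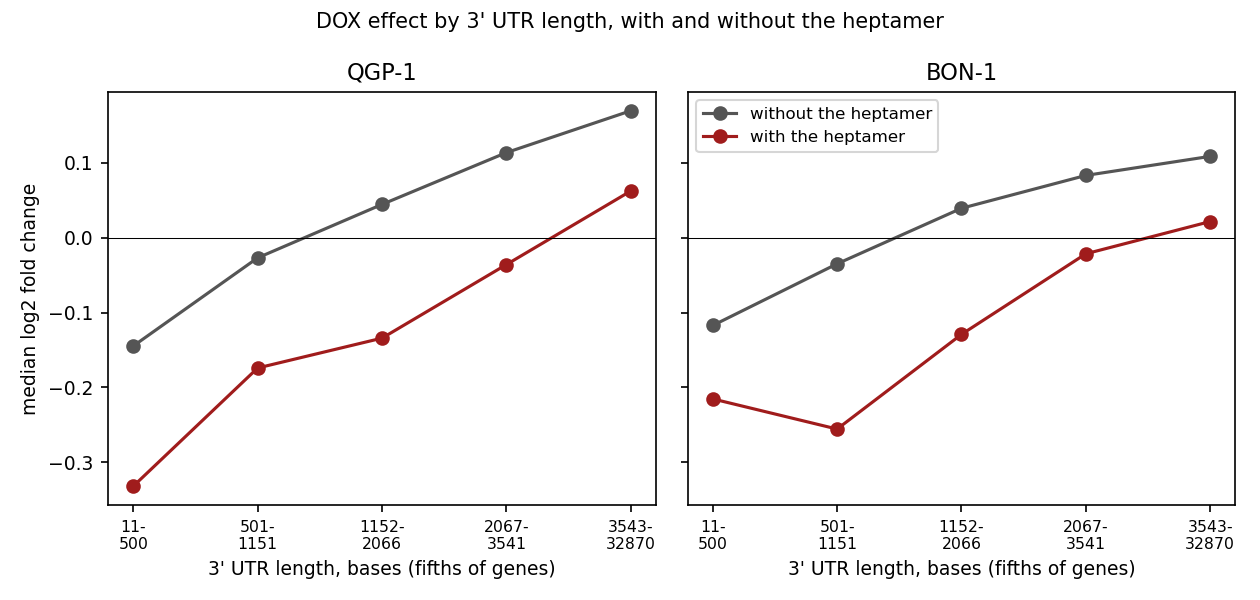
Median log2 fold change (y axis) of genes in 5 classes of 3′ UTR length in bases (x axis), in QGP-1 (left) and BON-1 (right), with the heptamer (red) and without it (grey). The grey curve rises with length from −0.14 to 0.17 in QGP-1 and from −0.12 to 0.11 in BON-1, and the red line lies below the grey one in every class.

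Shared increases were smaller than shared decreases among the leading genes. The 12 with the largest increase rose 1.83-fold to 2.36-fold, none had overlapping groups in either line, and for 8 the difference between lines lay within 0.5 log2. LTBP1, which binds latent TGF-β in the matrix, had the largest increase. It stood at 12.2, 13.1 and 13.1 CPM in QGP-1 with vehicle and at 30.5, 27.6 and 32.5 CPM with DOX, and at 22.7, 19.8 and 17.5 CPM in BON-1 with vehicle and at 45.3, 46.7 and 50.3 CPM with DOX. The increase was 1.24 ± 0.0788 on the log2 scale (adjusted p = 1.15e-08, edgeR) and was 1.24 in each line.

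THBS1, a secreted matrix glycoprotein that can activate latent TGF-β, stood at 67.9, 71.4 and 68.2 CPM in QGP-1 with vehicle and at 143, 147 and 136 CPM with DOX, and at 305, 303 and 285 CPM in BON-1 with vehicle and at 582, 628 and 641 CPM with DOX. All 6 DOX libraries were high by about the same factor, 2.06-fold in the common fit (1.05 ± 0.0525, adjusted p = 8.74e-10, edgeR), and the interval of the difference between lines was −0.19 to 0.22. ANXA2, a calcium-dependent membrane-binding protein, stood at 73.1, 64.9 and 76.2 CPM in QGP-1 with vehicle and at 124, 117 and 134 CPM with DOX, and at 160.2, 151 and 148 CPM in BON-1 with vehicle and at 302, 278 and 298 CPM with DOX. It rose 1.83-fold (0.87 ± 0.0603, adjusted p = 3.15e-08) and has 3 like-named pseudogenes. LPXN, an adaptor of focal adhesions, rose 1.98-fold (0.98 ± 0.0741, adjusted p = 8.4e-08), from 5.09 to 5.91 CPM to 11.3 to 12.6 CPM in QGP-1 and from 51.3 to 59.2 CPM to 98.4 to 103 CPM in BON-1.

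RND3, PHACTR2, FRMD3 and NCKAP5 were also among the leading increases. RND3, a small GTPase that opposes actomyosin contraction, stood at 27.5, 24.4 and 27.0 CPM in QGP-1 with vehicle and at 56.1, 54.7 and 62.7 CPM with DOX, and at 67.6, 68.8 and 76.8 CPM in BON-1 with vehicle and at 138, 129.8 and 148 CPM with DOX. It rose 2.07-fold (1.05 ± 0.0677, adjusted p = 1.35e-08, edgeR), and no DOX library came near the vehicle range. PHACTR2, a phosphatase and actin regulator, rose 1.91-fold (0.93 ± 0.0628, adjusted p = 2.41e-08), from 67.9 to 76.6 CPM to 135 to 149.7 CPM in QGP-1 and from 116 to 134 CPM to 209 to 249 CPM in BON-1. FRMD3, which carries a FERM domain, rose 1.91-fold (0.93 ± 0.0829), and NCKAP5 rose 2.03-fold (1.02 ± 0.0578).

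NTS and ONECUT2 are tied to endocrine cells. NTS encodes neurotensin, a gut peptide hormone, and stood at 496, 547 and 659 CPM in QGP-1 with vehicle and at 1067, 1086 and 1292 CPM with DOX, and at 656, 939 and 809 CPM in BON-1 with vehicle and at 1509, 1329 and 1457 CPM with DOX. ONECUT2, a transcription factor of endoderm and neuroendocrine tumors, stood at 1399.6, 1445 and 1244 CPM in QGP-1 with vehicle and at 2397, 2748 and 2561 CPM with DOX, and at 358, 331 and 312 CPM in BON-1 with vehicle and at 532, 590.4 and 674 CPM with DOX. The DOX libraries were high without overlap in both lines for both genes, although the vehicle libraries of BON-1 varied widely for NTS. NTS rose 1.9-fold (0.93 ± 0.0935, adjusted p = 2.6e-06, edgeR) and ONECUT2 1.84-fold (0.88 ± 0.0718, adjusted p = 2.38e-07).

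PLK2, a polo-like kinase induced by stress and by p53, rose from 50.5, 49.2 and 50.6 CPM to 100.01, 91.5 and 87.4 CPM in QGP-1 and from 498, 487 and 512 CPM to 860.4, 854 and 889 CPM in BON-1. The increase was 1.8-fold (0.84 ± 0.0538, adjusted p = 1.15e-08, edgeR) and close in both lines, with 0.89 and 0.80. NBPF1 rose 2.32-fold (1.21 ± 0.0603) and C11ORF71, of unknown function, 1.87-fold (0.90 ± 0.0938). NBPF1 belongs to a family of near-identical copies and is uncertain for that reason.

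Functions were described with 47 gene lists, by their counts and for some lists by their medians. Over all genes tested 15.3% fell, 14.8% rose and the median was −0.0072, and the counts of every list below are to be read beside these values. The share lower also moved with transcript length, from 35.3% in the shortest to 9.7% in the longest of 5 classes, and no list was matched for length. Cytosolic ribosomal proteins had the highest share of decreased members of the 47 lists. Of 78 cytosolic ribosomal protein genes 58 fell and none rose in the common fit, and the median was −0.31, against −0.0072 over all genes. The extent differed between lines, with medians of −0.52 in QGP-1 and −0.13 in BON-1, a called difference for 40 of the 78 and 21 that moved alike. RPS24 (−0.76 ± 0.10) and RPL35 (−0.68 ± 0.09), components of the small and large subunit, fell, and RPSA (−0.74 ± 0.08), of the small subunit, fell by more in QGP-1 (−0.95) than in BON-1 (−0.53). Ribosomal protein genes have many processed pseudogenes, and their single values are uncertain.

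Other parts of the translation machinery were mixed. Translation factors had 15 of 40 lower and 1 higher, with EIF3K (−0.59 ± 0.05), EIF5A (−0.59 ± 0.09) and the elongation factor EEF1A1 (−0.43 ± 0.07) lower and EIF3A (0.19 ± 0.06) higher. The call of EIF3A was lost without QGP-1 DOX replicate 1 and BON-1 DOX replicate 3 (adjusted p = 0.0637, edgeR). Aminoacyl-tRNA synthetases and their scaffolds had 7 of 23 lower and 1 higher, and the 3 lower members with the heptamer were AIMP2, DARS and WARS (−1.14 ± 0.10), which charges tryptophan tRNA. Ribosome biogenesis did not follow the ribosomal proteins, with 2 of 36 lower and 4 higher and a median of −0.03 that crossed 0 on the TPM scale, and GAR1 (0.56 ± 0.09), of box H/ACA particles, and POLR1B (0.33 ± 0.06), a subunit of RNA polymerase I, rose.

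Many genes of the mitochondrial respiratory chain fell in the common fit and none of the members tested rose. Complexes III, IV and V had 20 of 34 lower, of which 13 moved alike, and complex I had 18 of 37 lower, of which 8 moved alike. The other 14 and 19 members missed the call, and a difference between the lines was called for 11 and 8. The medians were −0.30 and −0.29, and both were lower in QGP-1 (−0.45 and −0.31) than in BON-1 (−0.14 and −0.12). COX5B (−0.72 ± 0.10) and COX4I1 (−0.55 ± 0.07) are subunits of cytochrome c oxidase, and NDUFB7 (−0.87 ± 0.11), NDUFB8 (−0.57 ± 0.09) and NDUFS8 (−0.50 ± 0.08) of complex I. NDUFB7 stood at 16.1, 16.0 and 14.5 CPM in QGP-1 with vehicle and at 6.65, 9.13 and 8.27 CPM with DOX, and at 11.04, 10.4 and 10.2 CPM in BON-1 with vehicle and at 7.12, 6.62 and 4.94 CPM with DOX, and did not overlap in either line.

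Mitochondrial translation and import moved in the same direction. Mitochondrial ribosomal proteins had 31 of 76 lower and 3 higher, with MRPL42 (−0.72 ± 0.07) and MRPS18B (−0.56 ± 0.09) among them, and the protein import machinery had 8 of 28 lower and none higher, including TOMM7 (−0.72 ± 0.14) and TIMM17A (−0.38 ± 0.07). The tricarboxylic acid cycle had 5 of 21 lower and 1 higher, of which 1 moved alike, and FH, the fumarase, fell by 0.32 ± 0.06. Transcripts of these lists are short. Median lengths were 827 bases for cytosolic ribosomal proteins, 691 for complex I, 955.5 for complexes III to V and 1242 for mitochondrial ribosomal proteins, and genes with transcripts of 295 to 2011 bases were lower in 35.3% of cases. The part of transcript length in these counts was not tested. The heptamer was rare in them, with 3 of the 58 lower ribosomal protein genes, 1 of 20 for complexes III to V and none of 18 for complex I.

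Glycolysis fell in part in both lines. Of 23 glycolytic genes 12 fell and 1 rose, the median was −0.24, and 6 lower members and 1 higher member moved alike. PGAM1, phosphoglycerate mutase, stood at 218, 229 and 227 CPM in QGP-1 with vehicle and at 111, 104 and 106 CPM with DOX, and at 205, 197 and 189 CPM in BON-1 with vehicle and at 69.3, 66.1 and 63.6 CPM with DOX. It was low in all DOX libraries, by more in BON-1 (−1.57) than in QGP-1 (−1.07), and it has 13 like-named pseudogenes. ENO1, enolase, fell by 0.62 ± 0.08, and PFKFB3, which makes the activator of phosphofructokinase, rose by 0.39 ± 0.10. LDHA and PGAM1 were the lower members with the heptamer.

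Serine, lipid and nucleotide synthesis had more lower than higher members. Serine and one-carbon metabolism had 7 of 16 lower and 1 higher, and 4 lower members moved alike. PHGDH, the first enzyme of serine synthesis, stood at 58.0, 54.9 and 47.5 CPM in QGP-1 with vehicle and at 27.6, 30.1 and 24.4 CPM with DOX, and at 19.8, 16.7 and 15.8 CPM in BON-1 with vehicle and at 9.6, 8.2 and 5.75 CPM with DOX. It was left at 48.2% (−1.05 ± 0.11) without overlap, and AHCY, which hydrolyses S-adenosylhomocysteine, fell by 0.48 ± 0.07. None of the 16 members of this list held the heptamer.

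Cholesterol synthesis had 8 of 25 lower and 1 higher, of which 7 and 1 moved alike, although the list's median was 0.01 in QGP-1 and −0.27 in BON-1. FDPS, which makes farnesyl pyrophosphate, stood at 217, 229 and 213 CPM in QGP-1 with vehicle and at 106, 104 and 111 CPM with DOX, and at 85.0, 79.2 and 81.8 CPM in BON-1 with vehicle and at 44.7, 46.0 and 37.5 CPM with DOX. It was left at 50.4% (−0.99 ± 0.0611, adjusted p = 9.13e-09, edgeR) without overlap, and has 8 like-named pseudogenes. FDFT1, squalene synthase (−0.50 ± 0.06), and HSD17B7 (−0.69 ± 0.08) fell too. Fatty acid synthesis had 7 of 16 lower and 2 higher, with the desaturase FADS1 lower by 0.35 (log2 fold change −0.35 ± 0.06).

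The NRF2 and pentose phosphate list had 10 of 20 lower and 2 higher, and the medians of −0.37 in QGP-1 and 0.01 in BON-1 lay apart. TALDO1 (−0.53 ± 0.06), an enzyme of the pentose phosphate pathway, fell. Nucleotide synthesis was closer in the lines, at −0.12 and −0.14, with 9 of 22 lower and 2 higher, among them CTPS1 (−0.41 ± 0.06), GMPS (−0.37 ± 0.06) and thymidine kinase TK1 (−0.45 ± 0.10). Amino acid transporters went both ways, with 2 of 13 lower (15.4%) and 3 higher (23.1%), against 15.3% and 14.8% over all genes tested. SLC7A11, the cystine carrier, stood at 606, 591 and 625 CPM in QGP-1 with vehicle and at 899, 892 and 896 CPM with DOX, and at 322, 298 and 296 CPM in BON-1 with vehicle and at 510.4, 529 and 593 CPM with DOX. It rose 1.62-fold (0.70 ± 0.0651, adjusted p = 1.2e-06, edgeR), SLC38A1 rose by 0.48 ± 0.06, and SLC1A5 (−0.32 ± 0.06) and SLC43A1 (−0.50 ± 0.10) fell.

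Proliferation genes fell in part and by small amounts. DNA replication had 21 of 43 lower and 2 higher, of which 11 and 1 moved alike, and its medians of −0.21 in QGP-1 and −0.19 in BON-1 were close. MCM6, a helicase subunit, fell by 0.45 ± 0.06, the primase PRIM1 by 0.59 ± 0.08 and POLA2, of DNA polymerase alpha, by 0.51 ± 0.09, and the origin recognition gene ORC3 rose by 0.36 ± 0.07. The median transcript length in this list was 3121 bases, and 4 of the 21 lower members held the heptamer. Among the 8752 genes above the floor the share lower was 22.4% for transcripts of 2012 to 3090 bases and 15.1% for those of 3091 to 4372 bases, and the part of length in the decreases of this list was not tested.

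Mitotic genes had 18 of 36 lower and 1 higher, with a called difference between lines for 13. Among its members 8 lower ones and the higher one moved alike, and the medians were −0.11 in QGP-1 and −0.30 in BON-1. The spindle gene HMMR (−0.69 ± 0.07), the kinetochore gene SPC24 (−0.51 ± 0.07) and the kinase AURKB (−0.46 ± 0.08) fell in the common fit, and none of the 18 lower members held the heptamer. The higher member was CENPE, a kinetochore motor, at 26.7, 30.2 and 25.3 CPM in QGP-1 with vehicle and 42.9, 47.4 and 33.8 CPM with DOX, and at 379, 411 and 384 CPM in BON-1 with vehicle and 541, 593 and 662 CPM with DOX. It rose 1.52-fold (0.60 ± 0.0792, adjusted p = 3.25e-05, edgeR) without overlap in either line.

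Regulators of the G1 phase showed no common direction. The E2F and RB family had 5 of 15 lower and 3 higher, with the pocket protein RBL1 lower (−0.54 ± 0.07) and TFDP2 (0.41 ± 0.07) and the repressor E2F7 (0.35 ± 0.07) higher. G1 cyclins and CDK inhibitors had 3 of 15 lower and 3 higher, and CCND1, cyclin D1, rose by 0.27 ± 0.06. Targets of p53 had 5 of 17 lower and 2 higher, with CCNG1 (−0.59 ± 0.06) and the damage recognition gene DDB2 (−0.85 ± 0.12) lower and PLK3 (0.67 ± 0.11) higher beside PLK2.

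Protein quality control fell in part. The proteasome had 13 of 34 lower (38.2%) and 1 higher and chaperonins 5 of 10 lower and none higher, against 15.3% lower over all genes tested. Median transcript lengths were 1553.5 bases for the proteasome and 2111 for chaperonins. Among the 8752 genes above the floor, 35.3% fell for transcripts of 295 to 2011 bases and 22.4% for those of 2012 to 3090 bases. The part of length in these counts was not tested. PSMD8 (−0.44 ± 0.08) and PSMB3 (−0.40 ± 0.08) are proteasome subunits beside PSMB5, and CCT7 (−0.46 ± 0.08) and CCT5 (−0.37 ± 0.06) are subunits of the chaperonin that folds actin and tubulin. Lysosome and autophagy genes had 8 of 32 lower and 2 higher, and MAP1LC3B, which coats autophagosomes, fell by 0.59 ± 0.06. Endoplasmic reticulum chaperones had 5 of 22 lower (22.7%) and 2 higher, with medians of 0.02 in QGP-1 and −0.25 in BON-1 and a called difference for 8, and SEL1L, of the degradation pathway there, fell by 0.39 ± 0.06.

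ERK feedback and immediate early genes were the list with the highest share of increased members among those with more than 10 tested, at 11 of 23, with 1 lower. Of these, 6 moved alike, and the medians were 0.26 in QGP-1 and 0.15 in BON-1. SPRED2 (0.54 ± 0.06) and SPRY1 (0.38 ± 0.07), inhibitors of RAS to ERK signalling, rose, and the ERK target ETV4 fell by 0.29 ± 0.08. EGR3, an immediate early transcription factor, stood at 5.92, 5.69 and 4.39 CPM in QGP-1 with vehicle and at 11.98, 10.8 and 10.9 CPM with DOX, and at 4.39, 4.18 and 3.15 CPM in BON-1 with vehicle and at 4.58, 5.85 and 6.7 CPM with DOX. It was high in all DOX libraries of both lines, but the lowest BON-1 DOX library was close to the vehicle range.

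Mesenchymal and TGF-β genes had 10 of 23 higher and 1 lower, and only 3 moved alike, with medians of 0.59 in QGP-1 and 0.02 in BON-1. THBS1 is in this list. CTGF, a matricellular protein, rose by more in BON-1 than in QGP-1 (0.94 there), with 1.30 to 1.45 CPM with vehicle and 2.45 to 2.78 CPM with DOX in QGP-1 and 35.9 to 46.4 and 112 to 122 CPM in BON-1. The receptor TGFBR2 rose in both as well (0.59 and 1.02), and the ligand TGFB1 was the lower member (−0.54 ± 0.17), a call that was lost without BON-1 vehicle replicate 1 or 3 or DOX replicate 1 or 3 (adjusted p from 0.0548 to 0.0703, edgeR). TGFB1 was at 55.8% of vehicle in BON-1 and at 91.1% in QGP-1. Its QGP-1 groups overlapped, at 2.62 to 3.18 CPM with vehicle and 1.57 to 3.29 CPM with DOX.

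Epithelial genes had 4 of 21 lower (19%) and 2 higher (9.52%), against 15.3% and 14.8% over all genes tested. The tight junction gene CLDN7 (−0.39 ± 0.08), the keratin KRT7 (−0.39 ± 0.09) and the epithelial transcription factor GRHL2 (−0.37 ± 0.08) fell, and TJP1, a junction scaffold, rose by 0.40 ± 0.06. Mucins and trefoil factors had 4 of 13 lower and 1 higher. Beside MUC1, the membrane mucin gene MUC3A stood at 11.9, 10.4 and 9.75 CPM in QGP-1 with vehicle and at 4.67, 4.19 and 4.57 CPM with DOX, and at 10.3, 9.83 and 11.6 CPM in BON-1 with vehicle and at 4.09, 4.68 and 5.69 CPM with DOX. It did not overlap in either line and was left at 43.8% (−1.19 ± 0.114, adjusted p = 1.55e-06, edgeR). The secreted peptide gene TFF3 fell by 0.39 ± 0.11, a call that was lost without QGP-1 DOX replicate 1 and BON-1 DOX replicate 3 (−0.25, adjusted p = 0.0611).

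Neuroendocrine markers went both ways. Of 27 members 6 rose (22.2%) and 4 fell (14.8%), against 14.8% higher and 15.3% lower over all genes tested. A difference between the lines was called for 8, and 4 of those that rose moved alike. SCG2 (0.33 ± 0.07) and SCG3 (0.31 ± 0.06), secretogranins of dense-core granules, and PTPRN2 (0.26 ± 0.06), a granule membrane protein, rose. CHGA, the granule protein chromogranin A, stood at 143 to 159 CPM with vehicle and 158 to 185 CPM with DOX in QGP-1 and at 6355 to 9153 and 2679 to 3064 CPM in BON-1, and VGF, another granule protein, at 1553 to 1993 and 1841 to 2484 CPM in QGP-1 and 483 to 564 and 338 to 456 CPM in BON-1. In BON-1 both were lower with DOX without overlap, and in QGP-1 their ranges overlapped. TPH1, the rate-limiting enzyme of serotonin synthesis in the gut, fell in both lines but by far more in BON-1 (−2.18) than in QGP-1 (−0.40). The summed level of the list moved in opposite directions, from 10800 to 11600 CPM up to 12400 to 13300 CPM in QGP-1 and from 15700 to 19700 CPM down to 12200 to 12700 CPM in BON-1. With vehicle CHGA held the largest part of the BON-1 sum, and CHGA and TPH1 both fell there. SCG2 went the other way in BON-1, from 2516 to 2776 CPM with vehicle to 3551 to 3653 CPM with DOX. The BON-1 sum thus does not describe the list as a whole.

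Interferon and antigen presentation genes fell in the common fit mainly through BON-1. Interferon-stimulated genes had 14 of 28 lower and none higher, with medians of 0.03 in QGP-1 and −1.12 in BON-1 and a called difference for 15. IFIT1, which binds foreign RNA, stood between 0 and 0.332 CPM in all QGP-1 libraries and so was hardly detected there, while in BON-1 it stood at 35.2, 59.1 and 51.1 CPM with vehicle and at 4.4, 6.57 and 3.93 CPM with DOX. OAS1 (−1.06 ± 0.12), a sensor of double-stranded RNA, was likewise under 0.6 CPM in QGP-1. MHC class I presentation had 7 of 14 lower and none higher, with medians of −0.02 and −0.70, and HLA-E (−0.74 ± 0.09) and HLA-B (−0.90 ± 0.16, with −0.33 in QGP-1 and −1.40 in BON-1) were lower. HLA class I genes share sequence and are uncertain one by one.

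Stress, NOTCH, chromatin and survival lists had few calls or no common direction. The ATF4 response had 4 of 19 lower and 3 higher, with DDIT4 (−1.28 ± 0.15), PCK2 (−0.68 ± 0.09) and PYCR1 (−0.44 ± 0.09) lower and PPP1R15A (0.48 ± 0.08), which restores translation after stress, higher. The NOTCH pathway had 1 of 29 lower and 6 higher, among them the coactivator MAML3 (0.32 ± 0.05) and the ligand JAG1, whose increase was 0.19 in QGP-1 and 0.93 in BON-1. Polycomb and COMPASS subunits had 3 of 29 lower and 3 higher (10.3% each, under the shares over all genes tested). BMI1 was lower (−0.80 ± 0.22) and JARID2 (0.41 ± 0.07), KMT2A (0.42 ± 0.07) and KMT2C (0.40 ± 0.08) were higher. In QGP-1 BMI1 was low and its groups overlapped, at 1.05 to 1.78 CPM with vehicle and 0.50 to 1.15 CPM with DOX. The BCL2 family had 3 of 15 in each direction, with the BH3-only genes HRK lower (−0.49 ± 0.10) and BMF higher (0.43 ± 0.08). The mTOR components had 5 of 25 lower and 2 higher, and their median was 0.06. LAMTOR1, of the lysosomal anchor of mTORC1, was lower by 0.35 (log2 fold change −0.35 ± 0.07). The higher members were MTOR, at 122.5% of vehicle in QGP-1 and 113.3% in BON-1, and RRAGC, at 120.7% and 115.6%.

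Tubulins and actins had 9 of 24 lower and 3 higher, with TUBA1C (−0.48 ± 0.06) and TUBA4A (−0.47 ± 0.06) lower, and these genes too have close copies. Hypoxia genes had 6 of 19 lower and 2 higher, none of the lower members moved alike, and EPAS1, a hypoxia-inducible factor, rose by 0.36 ± 0.07. Most markers of other cell types were low, with exceptions. Fibroblast and endothelial markers summed to between 2.57 and 5.08 CPM in QGP-1 and between 10 and 15.2 CPM in BON-1, with 5 of 10 tested and LUM called higher (1.03 ± 0.23). The call of LUM rests on BON-1, with 4.54 to 5.86 CPM with vehicle and 9.98 to 10.7 CPM with DOX. In QGP-1 LUM reached at most 0.026 CPM. Leukocyte markers summed to between 11 and 13.3 CPM with vehicle and between 17.6 and 21.8 CPM with DOX in QGP-1 and to between 25.3 and 28 CPM and between 51.7 and 56.4 CPM in BON-1, with 3 of 10 tested and the lysozyme gene LYZ (0.65 ± 0.15) higher. The summed acinar markers were 84.7 to 155 CPM with vehicle and 29.7 to 41.1 CPM with DOX in QGP-1 and 57.7 to 66.7 and 50.4 to 60.8 CPM in BON-1, with the trypsinogen gene PRSS1, which made up nearly all of the QGP-1 sums, lower (−1.32 ± 0.19). In BON-1 the macrophage marker CD68 stood at 22.7 to 25.9 CPM with vehicle and 48.0 to 50.7 CPM with DOX, and the acinar transcription factor PTF1A at 21.4 to 29.0 and 31.0 to 34.0 CPM. The part of these markers in the results was not tested.

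**Figure D5:**
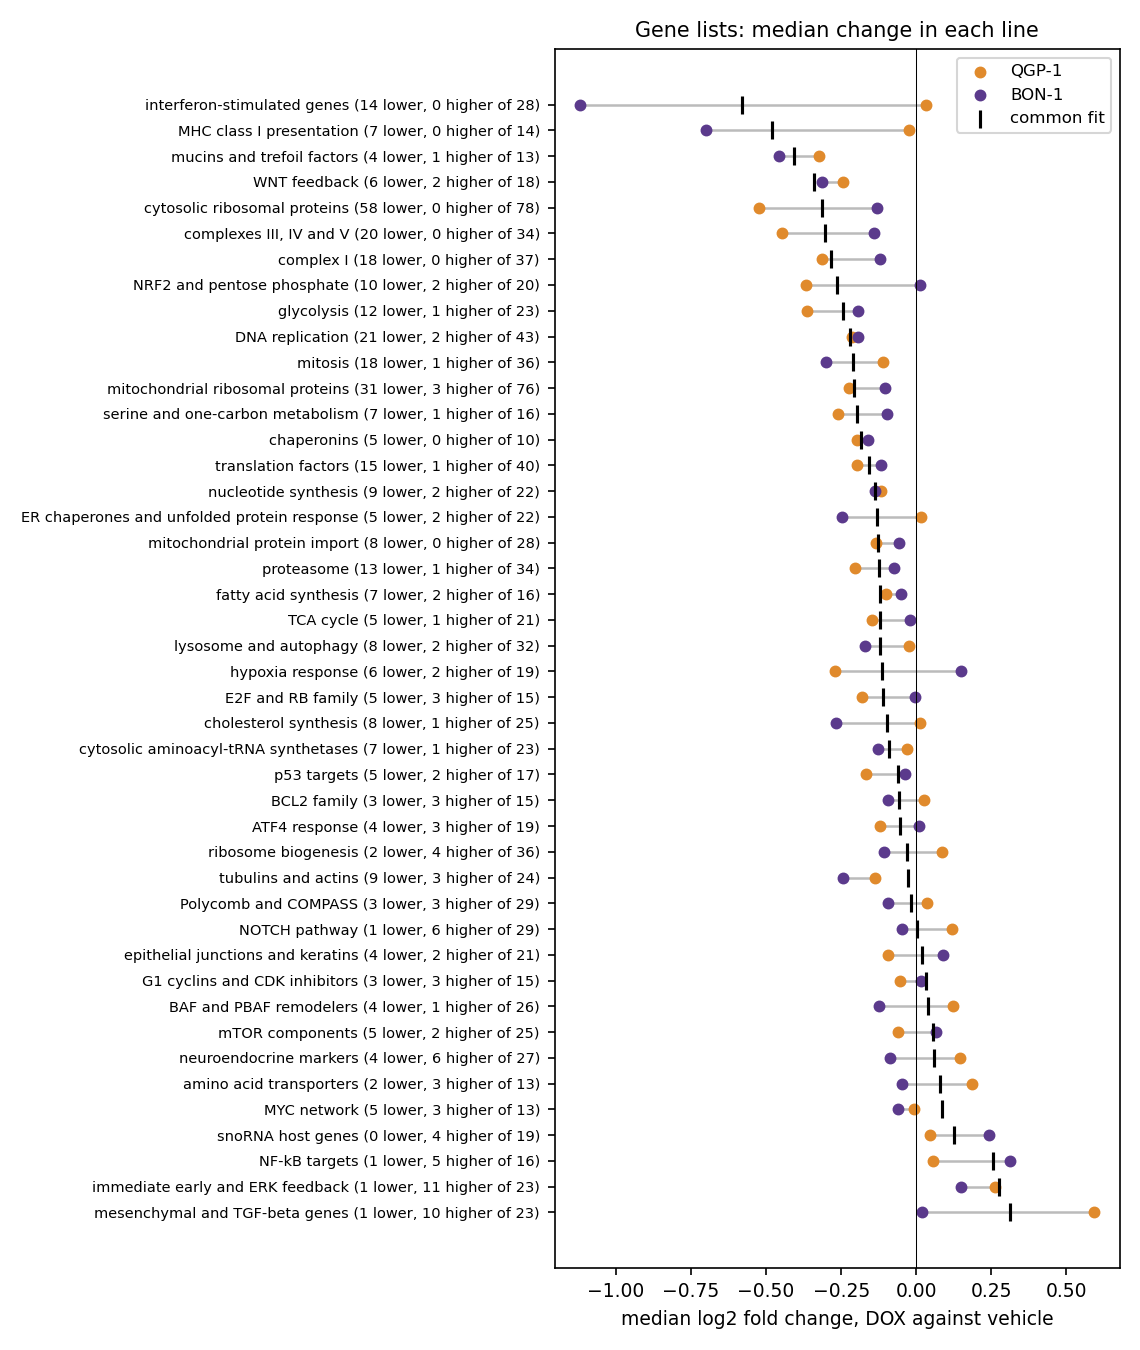
Median log2 fold change of the members of each gene list (x axis) in QGP-1 (orange), BON-1 (purple) and the common fit (black bar), with the number of members lower and higher of those tested beside each name. DNA replication, chaperonins and nucleotide synthesis have close medians in both lines, while interferon-stimulated genes (0.03 and −1.12) and mesenchymal genes (0.59 and 0.02) do not.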

How the data were processed

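Stranded mRNA libraries were made by the authors from 3 cultures of each of 4 groups, and the reads were aligned with STAR to GRCh38. The counter and its use of strand and multi-mapped reads are not given in the sources used here. The authors deposited raw read counts per gene and TPM for each line, and both were used here. Counts of all 12 libraries were joined by symbol, filtered with filterByExpr by group, scaled by TMM and fitted in edgeR 4.0.16 (R 4.3.3) with line and DOX as additive terms (quasi-likelihood test, Benjamini-Hochberg adjustment). A fit of the 4 groups gave the effect in each line and their difference. CPM are TMM-scaled, SE is the log2 fold change divided by the square root of F, and p-values measure the spread between these cultures only. DESeq2 1.42.0 and limma 3.58.1 (on log2(TPM + 1), genes whose mean TPM reached 1) served as alternatives, and the steps were tested on simulated data. The named genes are MUC1, the 12 largest changes and 8 smallest p-values in each direction among genes that moved alike whose mean log2 CPM reached 3 in each line, and up to 3 members per direction of each list. Members and lists were chosen with earlier results of these data known. Sequences were read from GENCODE v44 on GRCh38, 1 transcript per gene, and the GRCh38 build of the files is the one the labels give. Some members of the lists are not reported here.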

Additional observations from a re-analysis of the deposited data

Results flagged for a closer look

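Of 131 genes picked for naming in the report, 9 had an effect that differed between the lines by edgeR's test of the difference (BON-1 minus QGP-1, log2, interaction term, Benjamini-Hochberg adjustment). The rule for named genes also gave genes outside these 131, so 9 is not a count over all genes of the rule. TPH1 differed by −1.78 (adjusted p = 3.15e-10), HLA-B by −1.07 (7.34e-05), WARS by −0.54 (0.00435) and PGAM1 by −0.50 (0.000982), so that these decreases were larger in BON-1. The decrease of RPSA was larger in QGP-1, by 0.42 (0.0122), as was that of PRSS1, by 1.10 (0.00192). The increases of JAG1 (0.75, adjusted p = 1.5e-05), CTGF (0.56, 0.0326) and TGFBR2 (0.43, 0.00957) were larger in BON-1. Over all genes tested a difference was called for 16.7%, and the leading genes among the 131 were chosen for having none, so the number of 9 is largely set by the choice. All 9 had the same direction in both lines. Their common values describe a mean of unequal effects, and none of the 9 counts as having moved alike. Genes outside the 131 need not share a direction. The trefoil factor TFF1 was at 41.5% of vehicle in QGP-1 and at 109.4% in BON-1. CHGA was lower with DOX without overlap in BON-1, while its ranges overlapped in QGP-1.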

How the results depend on the processing

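No called gene among the 131 changed direction under any alternative, but many lost their call on the TPM scale. With limma on log2(TPM + 1) 96 of them lost it and 32 kept their label. The call was lost for 12 on the rescaled TPM, 10 with BON-1 alone and 8 with QGP-1 alone. The medians of the 47 lists changed sign for 9 lists with QGP-1 alone, 8 with BON-1 alone and at most 4 under any other alternative. Counts of calls shifted most in the TPM fits, which changed unit, test, filter and normalization together. On log2(TPM + 1) limma called 79 lower and 96 higher genes, of which 73 and 83 were called from counts, with a median over all genes of 0.12. RN7SK, RN7SL1 and RN7SL2 held 71.2% to 80.3% of the deposited TPM in QGP-1 and 50.9% to 74.3% in BON-1. TPM rescaled without RN7SK, RN7SL1 and RN7SL2, an alternative chosen after seeing the data, gave 1029 lower genes. A minimum log2 fold change of 0.5 left 1113 lower and 656 higher. DESeq2 (2627 and 2880), its size factors (2422 and 2617), library size scaling (2744 and 2211), no filter (2638 and 2425) and leaving out QGP-1 DOX replicate 1 and BON-1 DOX replicate 3, also chosen after seeing the data (2097 and 2083), stayed within 1.5 times. Leaving out each library in turn gave 2224 to 2487 lower and 2129 to 2362 higher genes, 1051 to 1240 and 1066 to 1201 that moved alike, and 1821 lower and 1832 higher genes were called throughout. The cause of these shifts was not tested. A fit with the replicate number as a block gave 1972 lower and 1881 higher genes. Same-numbered libraries of a line did not deviate together, with correlations from −0.0138 to 0.043, so the numbers are not shown to pair the cultures. Depth limits low genes most in BON-1.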
